A study of Homo sapiens and Mus musculus with 19 samples.

Results

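The methyl-binding-domain (MBD) family was followed in RNA retained on chromatin (caRNA), as the genes MBD1 to MBD6 in human K562 cells and their orthologues Mbd1 to Mbd6 in mouse embryonic stem cells (mESC). Members were chosen by gene symbol alone, after Ensembl identifiers were matched to GENCODE, and the 6 genes were found among 58721 in the K562 tables and among 54446 in the mESC tables. All 6 passed the filter on low counts in both species, so no member was left out. K562, an established human leukaemia line of erythroid and myeloid character, was of TET2 WT or TET2 KO genotype. Each genotype carried either shControl, a control hairpin, or shMBD6, a hairpin against MBD6, which gave 4 groups of 3 libraries. All K562 cells had been transduced with lentivirus and kept in puromycin, and per the study's methods a single MBD6 hairpin was used and the knockout cells had been made earlier by another laboratory. The mESC received siControl or siNsun2, the latter directed at the RNA m5C methyltransferase gene Nsun2, and each treatment had 3 libraries. They were grown with LIF and inhibitors of GSK3 and MEK and passaged on gelatin to remove feeder cells. Nothing in the labels says that replicates came from separate cultures, so that p-values measure the spread between these libraries.

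MBD proteins share a small fold first known for reading 5-methylcytosine in CpG dinucleotides, but the members use it differently. MBD1 and MBD2 bind methylated DNA and act as repressors, MBD1 with H3K9 methyltransferases and MBD2 through the NuRD deacetylase and remodelling complex. MBD3 is an alternative NuRD subunit that binds methylated DNA poorly, and MBD4 is a DNA glycosylase that removes thymine or uracil mispaired with guanine. MBD5 and MBD6 are partners of PR-DUB, the complex around BAP1 that removes ubiquitin from histone H2A. TET2 is a dioxygenase that oxidises 5-methylcytosine.

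The members differ greatly in gene size, which matters where unspliced RNA is counted. MBD6 (ENSG00000166987.14) lies on chromosome 12 at 57520710 to 57530148 on the plus strand of hg38 and spans 9439 bases. MBD5 (ENSG00000204406.13) lies on chromosome 2 at 148021011 to 148516971, also on the plus strand, and spans 495961 bases. MBD1 (ENSG00000141644.17; chromosome 18, 50266882 to 50281774) and MBD2 (ENSG00000134046.11; chromosome 18, 54151606 to 54224669) are both on the minus strand, as are MBD3 (ENSG00000071655.17; chromosome 19, 1573596 to 1592865) and MBD4 (ENSG00000129071.9; chromosome 3, 129430947 to 129440179). Genes on the opposite strand overlap MBD6 at both sides, with 1028 bases shared with DDIT3 and 516 with DCTN2, and ORC4 shares 594 bases with MBD5. MBD4 lies entirely within IFT122, which is on the opposite strand. MBD3 is the uncertain member in K562, because a gene on its own strand covers all but 24.6% of its span and reads there were assigned to neither gene.

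The promoters of MBD6 and MBD5 are shown because these partners of PR-DUB differed in opposite directions between the K562 groups. Each run is the 250 bases before a RefSeq start (GRCh38.p14; for MBD5 the more upstream start listed), read 5′ to 3′ on the gene's strand, with every CG dinucleotide, the sequence that carries CpG methylation, in capitals.

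MBD6, chr12:57522574-57522823, plus strand: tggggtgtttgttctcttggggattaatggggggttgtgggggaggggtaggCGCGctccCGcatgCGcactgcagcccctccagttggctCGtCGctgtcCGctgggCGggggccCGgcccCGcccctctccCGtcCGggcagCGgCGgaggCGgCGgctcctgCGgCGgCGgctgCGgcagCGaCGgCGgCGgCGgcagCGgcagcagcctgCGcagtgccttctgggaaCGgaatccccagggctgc

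MBD5, chr2:148020761-148021010, plus strand: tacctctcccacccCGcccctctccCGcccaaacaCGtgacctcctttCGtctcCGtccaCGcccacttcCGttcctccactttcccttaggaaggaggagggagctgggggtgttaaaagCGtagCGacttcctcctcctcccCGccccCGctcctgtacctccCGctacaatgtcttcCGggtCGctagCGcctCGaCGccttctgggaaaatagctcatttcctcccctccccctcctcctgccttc

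The motif CG, which reads the same on both strands, occurred 28 times before MBD6, 23 times before MBD1 and 17 times before MBD5. Of 35116 human promoter windows of this length, 15.9%, 25.8% and 39.0% held at least as many, and the median was 11. MBD2, MBD3 and MBD4 had 21, 32 and 26. All 6 members therefore start in windows with more CG than the median window. The MBD6 window begins 1864 bases inside the GENCODE span, since the longest annotated transcript starts further upstream. DNA methylation was not measured in these files, so the letters describe the locus only.

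The libraries held 52158403 to 102070223 gene counts in K562 and 58078323 to 66832780 in mESC. Levels are given in CPM, a gene's count relative to the TMM-scaled total of gene counts in its library, and means are given ± SD over 3 libraries. Of 8 K562 markers, 6 reached 1 CPM in at least 1 library of each group, among them GATA1, TAL1, KLF1, HBG1 and TFRC. HBE1 and HBG2 had 0 counts, and whether genes on the same strand take their reads was not examined. Markers of other blood lineages summed to 0.567 to 2.16 CPM in K562, with no defining marker above 1 CPM except in TET2 KO shMBD6, where 1 of 5 reached it. In mESC, 6 of 7 pluripotency markers were at 1 CPM or more and fibroblast markers, which feeder cells would carry, summed to 26.7 to 34.7 CPM.

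The targeted gene was examined first in TET2 WT cells. MBD6 was present at 43.3, 42.7 and 38.6 CPM in the shControl libraries and at 31.0, 25.7 and 27.2 CPM in the shMBD6 libraries. The groups did not overlap. MBD6 fell by 0.57 on the log2 scale (SE 0.08, 0.675-fold; edgeR quasi-likelihood test, Benjamini-Hochberg adjusted p = 1.83e-07), and leaving out any 1 library kept the value between -0.65 and -0.52. Among abundant protein-coding genes scaled among themselves it was -0.38 (adjusted p = 4.13e-05). Chromatin RNA includes unspliced transcripts, so that the values do not measure the mature mRNA that a hairpin targets.

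In TET2 KO cells MBD6 was not lower with the hairpin. It was present at 30.6, 30.8 and 29.4 CPM in the shControl libraries and at 30.6, 38.3 and 34.2 CPM in the libraries labelled shMBD6. The groups overlapped at their nearest values, and the log2 difference was 0.19 (SE 0.08, 95% interval 0.04 to 0.34; edgeR quasi-likelihood test, adjusted p = 0.0574). It was called in 7 of the 8 alternatives that kept all libraries of these groups, always with higher values in the libraries labelled shMBD6 (total gene counts, 0.31, adjusted p = 0.00158). Without shMBD6 replicate 1 it was 0.26 (adjusted p = 0.00527). The label of this group is thus not borne out by its MBD6 level in caRNA, and directions drawn from it below refer to the libraries so labelled. The same holds for the shControl label of the TET2 KO pair, which MBD6 does not check either, so that the genotype comparisons rest on both labels as given.

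MBD6 was already lower in TET2 KO than in TET2 WT under shControl, by 0.46 on the log2 scale (SE 0.08; edgeR quasi-likelihood test, adjusted p = 6.5e-06). Between the genotypes under shMBD6 it was higher in TET2 KO by 0.30 (adjusted p = 0.00139). Both comparisons share libraries with the hairpin comparisons, so these 4 differences are not separate measurements. The hairpin differences themselves differed between genotypes, by 0.75 (SE 0.11, TET2 KO minus TET2 WT; adjusted p = 4.51e-07). In order of level MBD6 was highest in TET2 WT shControl, at 41.5 ± 2.55 CPM, followed by TET2 KO shMBD6 at 34.4 ± 3.86, TET2 KO shControl at 30.3 ± 0.750 and TET2 WT shMBD6 at 28.0 ± 2.71. The middle pair overlapped, as did the lowest pair.

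**Figure D1:**
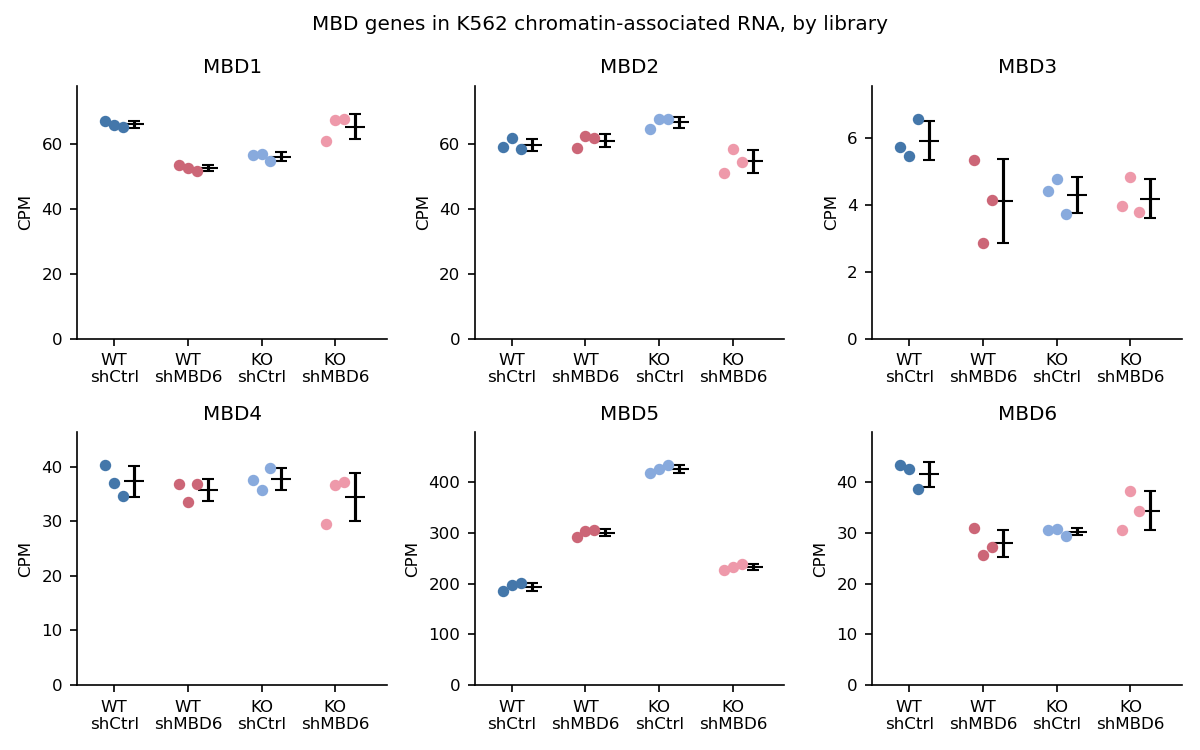
Levels of the 6 MBD genes in K562 by library (y axis, CPM after TMM scaling, from 0; x axis, the 4 groups). Coloured points are libraries, black marks are the mean ± SD of 3 libraries; MBD5 averages 194 CPM for TET2 WT shControl and 426 CPM for TET2 KO shControl, and MBD6 is highest in TET2 WT shControl at 41.5 CPM.

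Did a paralogue change when MBD6 fell? In TET2 WT cells 4 of the 6 members were called between shMBD6 and shControl, MBD5 higher and MBD1, MBD3 and MBD6 lower. Among all 26023 genes tested, 17.7% were called higher and 24.7% lower, so that calls were common in this comparison. Of protein-coding genes, the class of all 6 members, 54.4% were called in either direction. Of 9555 abundant protein-coding genes scaled among themselves, 3098 were called higher and 3089 lower. The balance of all calls depended on the scaling, with 41.8% of them higher under TMM, 55.2% under DESeq2 size factors and 53.4% under total gene counts. The median log2 change was -0.19 over the members, -0.04 over protein-coding genes and 0.10 over all genes. With DESeq2 size factors and total gene counts the member median was -0.08 and -0.10, and that of all genes 0.21 and 0.19. Among abundant protein-coding genes the median of the 5 members tested was 0.13, so the direction of the family median depended on the scaling. The calls and directions of MBD1, MBD5 and MBD6 held under each of these scalings.

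MBD5, the paralogue closest to MBD6 in its known partners, was the only member that rose under TMM scaling. Its level was 185, 197 and 201 CPM in shControl and 292, 304 and 306 CPM in shMBD6 libraries of TET2 WT cells. Every shMBD6 library lay above every shControl library. The log2 change was 0.63 (SE 0.03, 1.55-fold; edgeR quasi-likelihood test, adjusted p = 2.79e-17), opposite in sign to that of MBD6 in the same libraries.

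MBD5 moved the other way in TET2 KO cells. It was present at 419, 427 and 433 CPM in shControl libraries and at 227, 233 and 238 CPM in libraries labelled shMBD6. The groups were far apart, and MBD5 fell by 0.87 on the log2 scale (SE 0.03, 0.546-fold; edgeR quasi-likelihood test, adjusted p = 5.98e-21). TET2 KO exceeded TET2 WT by 1.14 under shControl (2.2-fold, adjusted p = 6.35e-25) and was lower by 0.37 under shMBD6 (adjusted p = 8.27e-12). The hairpin differences differed between genotypes by -1.51 (SE 0.05, adjusted p = 1.08e-23), the widest such difference in the family. The 4 groups therefore stood in the order TET2 KO shControl, TET2 WT shMBD6, TET2 KO shMBD6 and TET2 WT shControl, with no overlap between neighbours.

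In all 4 pairwise K562 comparisons the median change of very long genes had the same sign as that of MBD5. The 1464 tested protein-coding genes that span at least 200 kb had a median log2 change of 0.57 with shMBD6 in TET2 WT cells and of -0.43 in TET2 KO cells. For 5335 genes under 20 kb, the size class of MBD6, the medians were -0.19 and 0.15. MBD5 lay between the quartiles of the long genes in TET2 WT cells (-0.01 to 1.05) and just below their lower quartile in TET2 KO cells (-0.86). Between the genotypes under shControl its change of 1.14 was above their upper quartile of 0.70. MBD6 lay below the lower quartile of the short genes in TET2 WT cells, which was -0.50. For the genotype difference in the hairpin change, long genes had a median of -0.97 (quartiles -1.84 and -0.25) and short genes one of 0.33 (-0.60 and 0.86). MBD5 at -1.51 lay between the quartiles of the long genes. MBD6 at 0.75 and MBD1, also under 20 kb, at 0.55 lay between those of the short genes. The part of gene length in these changes was not tested.

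**Figure D2:**
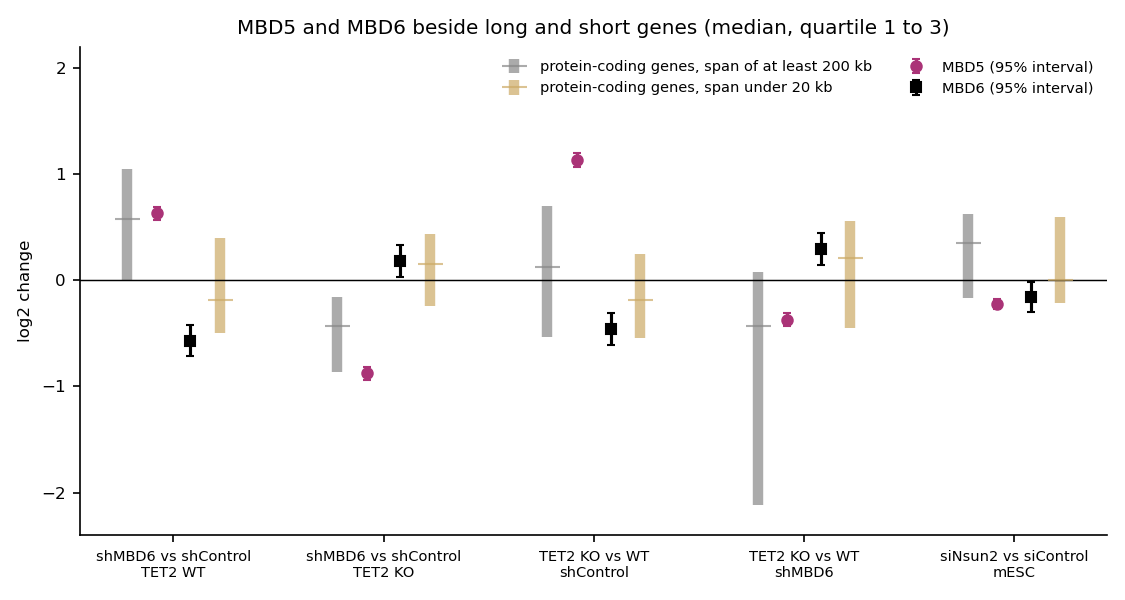
Log2 changes (y axis) in the 4 pairwise K562 comparisons and in mESC (x axis). Circles and squares are MBD5 and MBD6 (Mbd5 and Mbd6 in mESC) with 95% intervals, and bars with a line are the quartiles and median of long and short protein-coding genes; long genes have medians of 0.57 and -0.43 in the hairpin comparisons of TET2 WT and TET2 KO cells, where MBD5 changed by 0.63 and -0.87.

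Genes that share a locus with these members were compared by the same fit. DCTN2, a dynactin subunit that overlaps the end of MBD6 on the opposite strand, fell by 0.51 with shMBD6 in TET2 WT cells (adjusted p = 5.87e-12) and rose by 0.49 in TET2 KO cells (edgeR quasi-likelihood test, adjusted p = 2.19e-11). DDIT3, a stress-response transcription factor at the other side, rose by 0.24 in TET2 WT cells (adjusted p = 0.0201) and was not called in TET2 KO cells, at 0.05 (adjusted p = 0.706). Of 34 further tested protein-coding genes within 500 kb of MBD6 that do not overlap it, 6 were called higher and 12 lower in TET2 WT cells, and 13 higher and 5 lower in TET2 KO cells. The medians were -0.08 and 0.13. Of all protein-coding genes tested, 54.4% and 45.2% were called in either direction, with medians of -0.04 and -0.02. Calls among the neighbours were thus common and not particular to this locus. ORC4, which encodes a subunit of the replication origin complex and lies head to head with MBD5, differed by 0.02 in TET2 WT cells (adjusted p = 0.802; called higher at 0.13, 0.11 and 0.20 with DESeq2 size factors, total gene counts and abundant protein-coding genes) and fell by 0.53 in TET2 KO cells (adjusted p = 4.8e-12). Whether ORC4 changed beside MBD5 in TET2 WT cells therefore depended on the scaling, whereas both genes fell in TET2 KO cells.

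MBD1, the repressor that works with H3K9 methylation, had levels of 67.0, 65.8 and 65.0 CPM in shControl and 53.3, 52.6 and 51.6 CPM in shMBD6 libraries of TET2 WT cells. The groups did not overlap, and MBD1 fell by 0.33 on the log2 scale (SE 0.05; edgeR quasi-likelihood test, adjusted p = 1.47e-06). The change was -0.22 with DESeq2 size factors and -0.14 among abundant protein-coding genes scaled among themselves (edgeR adjusted p = 0.017). It was present at 56.0 ± 1.27 CPM in TET2 KO cells with shControl and at 65.3 ± 3.85 CPM in libraries labelled shMBD6, and rose by 0.22 (SE 0.05; edgeR quasi-likelihood test, adjusted p = 0.000534). The differences with the hairpin differed between genotypes by 0.55 (adjusted p = 5.16e-08). MBD1 was also lower in TET2 KO than in TET2 WT under shControl, by 0.24, and higher under shMBD6, by 0.31 (adjusted p = 0.00018 and 2.33e-06). Total gene counts moved the former to -0.41, and the latter was 0.17 with total gene counts and lost its call among abundant protein-coding genes (0.089, adjusted p = 0.122).

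MBD2, the methyl-CpG reader of NuRD, was not called in TET2 WT cells. It stood at 58.8, 61.8 and 58.3 CPM with shControl and at 58.6, 62.2 and 61.8 CPM with shMBD6. The groups overlapped, with a log2 difference of 0.03 and a 95% interval of -0.07 to 0.13 (edgeR quasi-likelihood test, adjusted p = 0.689). With DESeq2 size factors it was called, at 0.14 (adjusted p = 0.0307). MBD2 fell in TET2 KO cells from 64.5, 67.5 and 67.6 to 51.0, 58.3 and 54.2 CPM, by 0.29 on the log2 scale (adjusted p = 3.28e-05), and by 0.16 with total gene counts (adjusted p = 0.0107). The difference between genotypes in the hairpin change was -0.32 (adjusted p = 0.000519).

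MBD3, the other NuRD member of the family, had 162 to 661 counts per K562 library. It stood at 5.74, 5.47 and 6.58 CPM with shControl and at 5.35, 2.86 and 4.16 CPM with shMBD6 in TET2 WT cells. The call on its fall of 0.52 (SE 0.20; edgeR quasi-likelihood test, adjusted p = 0.0322) rested on single libraries. It was lost without shMBD6 replicate 2 (-0.32, adjusted p = 0.234), without shMBD6 replicate 3 (-0.52, adjusted p = 0.0713) and without shControl replicate 3 (-0.44, adjusted p = 0.124). The difference in TET2 KO cells was -0.04 with an interval of -0.42 to 0.35, and the hairpin differences were not called as different between genotypes (0.48, adjusted p = 0.157).

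MBD4, the glycosylase, was not called in any K562 comparison under TMM scaling. In TET2 WT cells it had 37.3 ± 2.80 CPM with shControl and 35.8 ± 1.96 with shMBD6, and TET2 KO cells had 37.7 ± 2.01 and 34.4 ± 4.32. The libraries of all 4 groups overlapped. The 95% intervals of the log2 difference were -0.21 to 0.09 for the hairpin in TET2 WT cells and -0.28 to 0.02 in TET2 KO cells. With DESeq2 size factors MBD4 was called lower in TET2 KO than in TET2 WT under shMBD6 (-0.17; edgeR, adjusted p = 0.0485), as it was with total gene counts (-0.20, adjusted p = 0.0237) and among abundant protein-coding genes (-0.28, adjusted p = 0.00123). In the last of these the hairpin difference of MBD4 was also called as lower in TET2 KO (-0.29, edgeR adjusted p = 0.0138).

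In TET2 KO cells 3 of the 6 members were called between the hairpins, MBD1 higher and MBD2 and MBD5 lower, where 15.7% of all genes were called higher and 20.6% lower. Of all calls there 43.3% were higher, and 59.9% with total gene counts. Between the genotypes under shControl, MBD2 and MBD5 were higher and MBD1 and MBD6 lower in TET2 KO, beside 23.5% and 22.3% of all genes. The share of calls that were higher was 51.4%, and 35.3% with total gene counts, under which MBD2 was no longer called (-0.02, edgeR adjusted p = 0.764). MBD3 differed by -0.46 in this comparison (edgeR adjusted p = 0.052) and was called lower under 5 alternatives, at -0.48 with DESeq2 size factors and -0.64 with total gene counts. Under shMBD6, MBD1 and MBD6 were higher and MBD2 and MBD5 lower, beside 30.1% and 28.5%. Here 51.4% of calls were higher, and 39.6% with total gene counts, under which MBD6 was not called (0.15, edgeR adjusted p = 0.106). Among abundant protein-coding genes neither MBD1 nor MBD6 was called there. The hairpin difference itself was higher in TET2 KO for MBD1 and MBD6 and lower for MBD2 and MBD5, beside 23.9% and 25.5%. Of protein-coding genes, 45.2% were called in either direction between the hairpins in TET2 KO cells and 59.9% for the hairpin difference. Between the genotypes, 54.3% of them were called under shControl and 67.1% under shMBD6. The 4 pairwise comparisons share libraries, so the repeated appearance of these 4 members is not independent evidence.

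**Figure D3:**
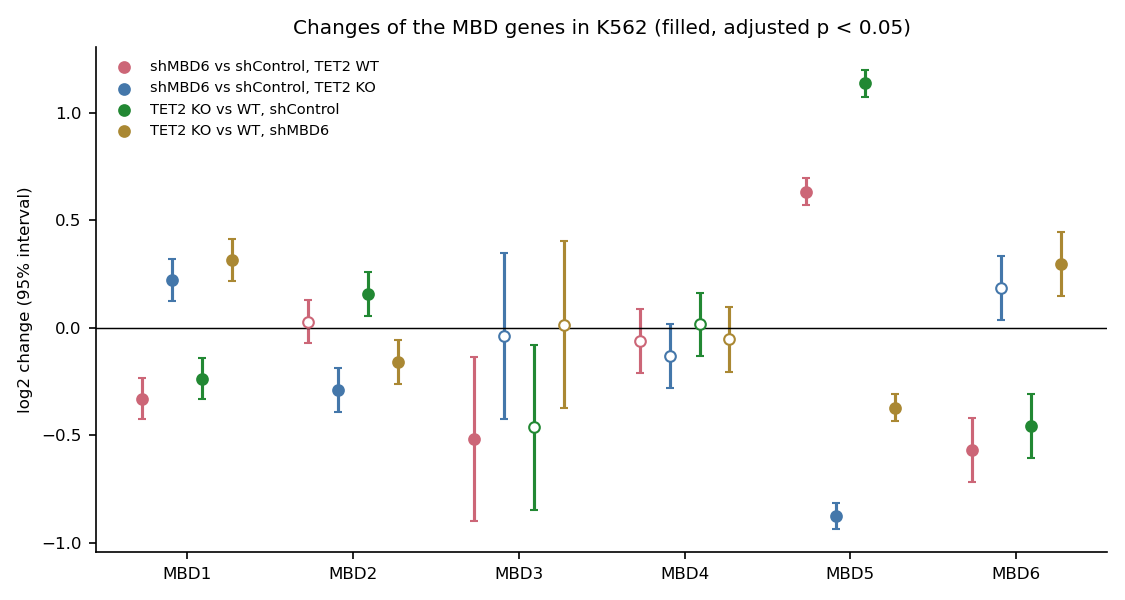
Log2 changes (y axis, with 95% intervals) of MBD1 to MBD6 (x axis) in 4 K562 comparisons, coloured by comparison. Filled points have an adjusted p under 0.05 (edgeR); MBD5 changed by 0.63 in TET2 WT and by -0.87 in TET2 KO cells with the hairpin, and no MBD4 point is filled.

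Erythroid markers moved with the groups as well. The summed level of the K562 markers in TET2 WT cells was 785 to 807 CPM with shControl and 523 to 538 with shMBD6, and TET2 KO cells had 452 to 458 and 637 to 647. Of 6 markers tested, and with DESeq2 size factors and total gene counts alike for the hairpin comparisons, 4 were called lower with shMBD6 in TET2 WT cells, 6 were called higher in TET2 KO cells and 6 were called lower in TET2 KO than in TET2 WT cells under shControl. TFRC, the transferrin receptor, made up most of the sum. This order of the groups was that of MBD6, apart from the lowest pair. The share of reads outside annotated genes was 13.1% to 13.3% in TET2 WT shControl and 15.0% to 16.0% in the other groups. Neither part in the changes of the MBD genes was tested.

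The weight of each member in the family was followed as its share of the summed counts of all 6. MBD5 took 48.0% ± 1.75 of family counts in TET2 WT shControl and 62.4% ± 1.04 in TET2 WT shMBD6, against 68.6% ± 0.296 and 54.7% ± 1.59 in TET2 KO shControl and shMBD6. MBD6 took 10.3% ± 0.650, 5.80% ± 0.600, 4.87% ± 0.169 and 8.07% ± 0.596 in the same order. In two-sided exact permutation tests each of these hairpin differences had p = 0.1 (Benjamini-Hochberg adjusted p = 0.130 over 30 tests), the smallest that 3 libraries against 3 allow, so that none could pass 0.05. A share also falls when another member rises, and MBD5 held the largest share in each group. The shares of MBD1, MBD2, MBD3 and MBD4, like that of MBD6, fell with shMBD6 in TET2 WT cells and rose in TET2 KO cells. Counts were taken to cover full gene spans, 495961 bases for MBD5 and 9439 for MBD6, so shares also depend on length.

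Levels can be compared between members only per length, and the order depended on the length used. Per kb of exon in TET2 WT shControl, MBD4 had 11.1 ± 0.835 CPM, MBD2 10.5 ± 0.326, MBD1 9.79 ± 0.146, MBD5 7.95 ± 0.341, MBD6 7.46 ± 0.458 and MBD3 0.750 ± 0.0732. MBD4 and MBD2 overlapped, as did MBD5 and MBD6. Per kb of gene span, MBD1, MBD6 and MBD4 led at 4.43 ± 0.0662, 4.40 ± 0.270 and 4.04 ± 0.303 CPM, neighbours that overlapped, and MBD5 was at 0.391 ± 0.0168. MBD3 was lowest on both scales, but per kb of span free of other genes on its strand it reached 1.25 ± 0.122 CPM, above MBD2 and MBD5.

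In mESC siControl libraries the order per kb of exon was Mbd2 at 21.4 ± 0.257 CPM, Mbd5 at 20.4 ± 0.971, Mbd4 at 10.7 ± 0.410, Mbd3 at 8.89 ± 0.389, Mbd6 at 4.46 ± 0.170 and Mbd1 at 4.31 ± 0.146. Mbd2 and Mbd5 overlapped, and so did Mbd6 and Mbd1. Mbd3, which no annotated gene overlaps in mouse, stood higher in this order than MBD3 in K562. Human and mouse values come from separately scaled tables with different annotations, so the levels are set side by side without a test.

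**Figure D4:**
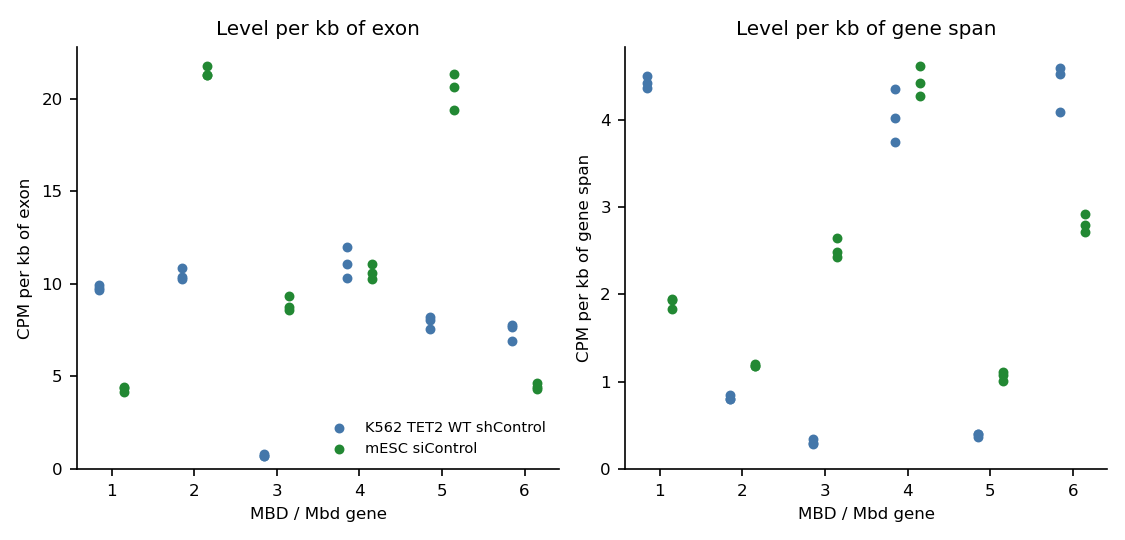
Levels of the 6 genes (x axis, gene number) per kb of exon (left) and per kb of gene span (right), in CPM per kb on y axes from 0. Points are the 3 libraries of K562 TET2 WT shControl and of mESC siControl; MBD5 is at 7.95 per kb of exon but 0.391 per kb of span in K562, and MBD3 is low in K562 only.

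In mESC, the question was whether the family differs when Nsun2, a writer of RNA m5C, is depleted. Nsun2 itself fell by 0.34 on the log2 scale (SE 0.03; edgeR quasi-likelihood test, adjusted p = 2.78e-16), and by 0.16 with total gene counts (adjusted p = 1.15e-05). Tet2, at which siNsun2 is not directed, was also called lower, by 0.42. The fall of Nsun2 was therefore not particular to the targeted gene. Of the 6 members, Mbd3, Mbd4 and Mbd5 were called lower and none higher, where 25.8% of 27603 genes were called higher and 24.3% lower. Of protein-coding genes, 57.8% were called in either direction. The calls of the members depended on scaling. With total gene counts none of the 3 was called (Mbd5, -0.04; Mbd4, -0.06; Mbd3, -0.02), and Mbd2 was called higher at 0.15 (edgeR adjusted p = 0.000465). The same scaling moved the share of all calls that were higher from 51.5% to 79.8% and the median change of all genes from 0.14 to 0.32.

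Mbd5 (ENSMUSG00000036792.12, chromosome 2, 48949508 to 49325405, plus strand, mm10) stood at 381, 405 and 418 CPM in siControl and at 343, 336 and 351 CPM in siNsun2 libraries. It fell by 0.23 (SE 0.02; edgeR quasi-likelihood test, adjusted p = 2.47e-13) without overlap between groups. Mbd4 (ENSMUSG00000030322.12, chromosome 6, 115840697 to 115853371, minus strand) went from 56.0, 54.2 and 58.5 to 45.8, 48.0 and 48.7 CPM, a fall of 0.24 (adjusted p = 1.24e-06), again without overlap.

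Mbd3 (ENSMUSG00000035478.14, chromosome 10, 80392539 to 80399550, minus strand) went from 18.5, 17.0 and 17.4 to 15.7, 16.7 and 13.8 CPM. The groups did not overlap but lay close, and the fall of 0.20 (SE 0.08; edgeR quasi-likelihood test, adjusted p = 0.0239) was not called without siNsun2 replicate 3 (-0.13, adjusted p = 0.198) or siControl replicate 1 (-0.17, adjusted p = 0.0935). Mbd6 (ENSMUSG00000025409.14, chromosome 10, 127281956 to 127289018, minus strand) stood at 20.7, 19.2 and 19.8 CPM and at 17.1, 17.5 and 18.9 CPM. Its difference of -0.16 had an interval of -0.29 to -0.02 and an adjusted p of 0.056 (edgeR), and it was called lower with DESeq2 size factors (-0.22, adjusted p = 0.00717) and with no filter (-0.17, adjusted p = 0.044). Mbd1 (28.9 ± 0.982 against 27.8 ± 0.805 CPM) and Mbd2 (68.9 ± 0.827 against 67.6 ± 3.63 CPM) overlapped between groups, with intervals of -0.17 to 0.06 and -0.10 to 0.05.

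Reads outside genes made up 28.9% to 29.9% of records after siNsun2 and 19.6% to 20.2% after siControl. The protein-coding genes over 200 kb had a median change of 0.36 in this comparison, opposite in sign to that of Mbd5. Pluripotency markers moved too, with 5 of 6 tested called lower (2, and 1 higher, with total gene counts) and their sum at 904 to 923 CPM compared with 1042 to 1073. The part of these differences in the Mbd changes was not tested.

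**Figure D5:**
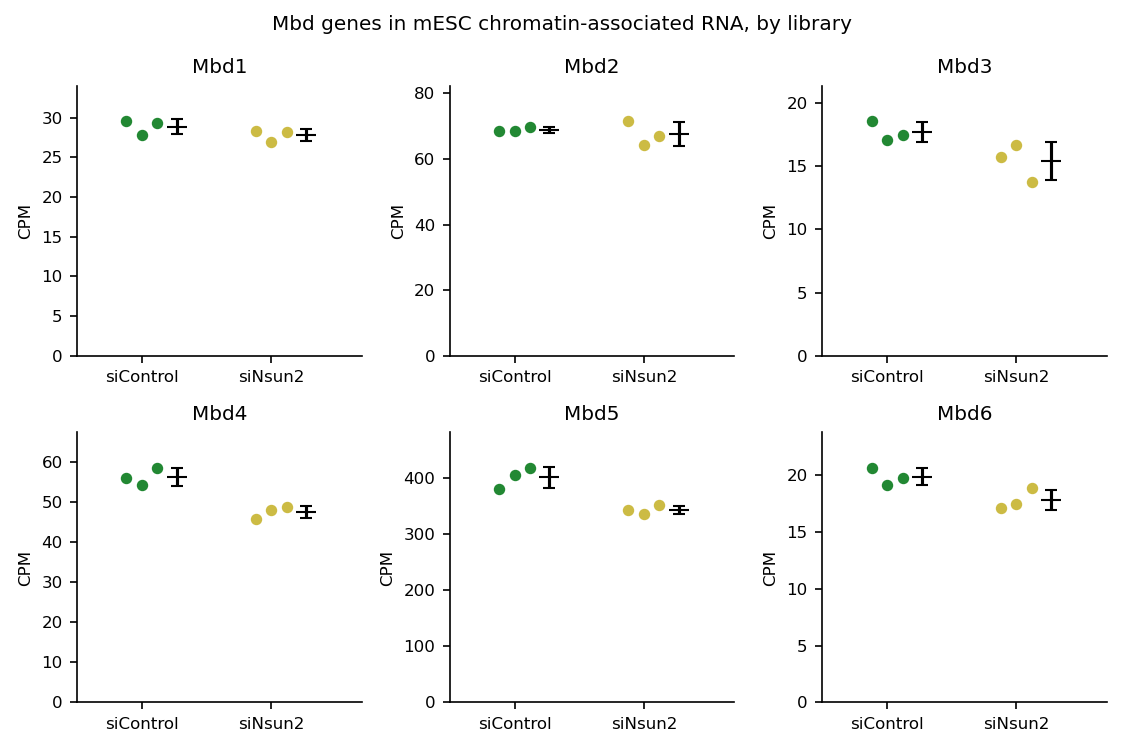
Levels of the 6 Mbd genes in mESC by library (y axis, CPM after TMM scaling, from 0; x axis, siControl and siNsun2). Points are libraries and black marks the mean ± SD of 3; Mbd4 goes from 56.2 to 47.5 CPM and Mbd5 from 401 to 343 CPM without overlap, whereas Mbd1 and Mbd2 overlap.

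Partners of the members were examined next, as lists with their counts. These stand beside 17.7% of all genes called higher and 24.7% lower with shMBD6 in TET2 WT cells and 15.7% and 20.6% in TET2 KO cells. Of protein-coding genes, 54.4% and 45.2% were called in either direction. Of 9 genes of PR-DUB and its partners, 1 was called higher and 5 lower with shMBD6 in TET2 WT cells, and 2 higher and 5 lower in TET2 KO cells. BAP1, the deubiquitinase, fell by 0.53 in TET2 WT and rose by 0.57 in TET2 KO cells (edgeR quasi-likelihood test, adjusted p = 3.25e-06 and 1.34e-06), and OGT, a glycosyltransferase found with it, fell by 0.24 and rose by 0.46. Among abundant protein-coding genes BAP1 and OGT changed by -0.34 and -0.05 in TET2 WT cells. HCFC1, a host-cell factor bound by BAP1, rose by 0.13 in TET2 WT and fell by 0.21 in TET2 KO cells (not called there with total gene counts, -0.089). The medians of the list were -0.12 and -0.19. That in TET2 WT cells was -0.01 with DESeq2 size factors and 0.04 among abundant protein-coding genes scaled among themselves, and in TET2 KO cells 3 genes were called higher and 2 lower with total gene counts (median -0.06), so that the list gives no direction in either genotype.

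Of 12 NuRD genes, 1 was called higher and 8 lower in TET2 WT cells, with a median of -0.17 (-0.06 with DESeq2 size factors), and 4 higher and 3 lower in TET2 KO cells, with a median of -0.01 (0.12 with total gene counts). MTA2 and CHD3 fell most in TET2 WT cells, by 0.60 and 0.45, and rose by 0.33 and 0.24 in TET2 KO cells. CHD4, the main NuRD ATPase, was counted at 1.24 to 1.77 CPM on average per group and was not called in either. Chd4 stood at 387 ± 8.96 CPM in mESC siControl. Whether a gene on the same strand lowers the CHD4 count was not examined, so this count is not read as its expression.

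The repair partners of MBD4 were called in opposite directions in the genotypes. Of 8 genes, 6 were called lower and none higher with shMBD6 in TET2 WT cells (median -0.49), and 6 higher and none lower in TET2 KO cells (median 0.47), whereas MBD4 itself was called in neither. Under the other scalings the medians ran from -0.39 to -0.30 and from 0.44 to 0.60, and 1 gene was called higher in TET2 WT cells. APEX1, the abasic-site endonuclease, fell by 1.12 in TET2 WT and rose by 0.91 in TET2 KO cells, and UNG, a uracil glycosylase, fell by 0.76 and rose by 0.81. Of the 5 H3K9 partners of MBD1, 1 was higher and 3 lower in TET2 WT cells (2 and 3 with DESeq2 size factors) and 2 were higher and 1 lower in TET2 KO cells. SUV39H1, an H3K9 methyltransferase, fell by 0.62 and rose by 0.69.

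Other genes with a methyl-binding domain were read in the same fit. Of 10, 5 had enough counts to be tested in K562. With shMBD6, 3 of them were called lower and none higher in each genotype, with medians of -0.20 in TET2 WT and -0.22 in TET2 KO cells. The tested gene that is not named here was among those called lower in both. SETDB1 and SETDB2, H3K9 methyltransferases, fell by 0.30 and 0.40 in TET2 WT cells with shMBD6 (edgeR quasi-likelihood test, adjusted p = 6.85e-06 and 1.2e-06) and were not called in TET2 KO cells, at -0.01 and 0.08 (SETDB2 was called higher with total gene counts, 0.21). BAZ2A and BAZ2B, subunits of remodelling complexes, were not called in TET2 WT cells, at 0.04 each, and fell by 0.22 and 0.42 in TET2 KO cells. With DESeq2 size factors BAZ2A and BAZ2B were both called higher in TET2 WT cells, at 0.15 each, and SETDB1 lost its call there among abundant protein-coding genes (-0.11, edgeR adjusted p = 0.0545). The MBD3-like genes were at or near 0 counts in K562. In mESC, 5 of 7 tested were called lower and 1 higher under siNsun2. With total gene counts 1 gene of the list was called lower and 1 higher.

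Of the same lists under siNsun2, 9 of 12 NuRD genes, 6 of 9 PR-DUB genes, 5 of 8 repair genes and 4 of 5 H3K9 partners were called lower, and 2, 1, 1 and none were called higher. Their medians ran from -0.16 to -0.11, beside a median of 0.14 over all genes, of which 25.8% were called higher and 24.3% lower. Protein-coding genes, the nearer comparison, had a median of -0.03, and 57.8% were called in either direction. Under total gene counts the list medians lay between 0.02 and 0.07, so that their direction flipped with the scaling.

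Across the 12 K562 libraries, which fall into 4 groups, the log2 levels of MBD1 and MBD6 had a Pearson's r of 0.88 and those of MBD5 and MBD6 one of -0.73. Among the genes most like MBD6 of 26023 were TEX264 (r = 0.963), IGBP1 (0.961), TRAPPC10 (0.957) and WDCP (0.954). Those most like MBD5 were AP1S2 (0.996), SLCO2B1 (0.996), OPN3 (0.996), DIAPH3 (0.994) and HIBCH (0.993). These correlations describe differences between groups and share libraries and scaling.

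TET2 and NSUN2 were read from the same libraries. In TET2 WT cells TET2 was present at 121 ± 2.59 CPM with shControl and 122 ± 4.07 with shMBD6, and TET2 KO cells had 129 ± 2.23 and 94.8 ± 5.28. TET2 was called higher with shMBD6 in TET2 WT cells under the other scalings (0.11 with DESeq2 size factors). The knockout libraries did not hold fewer TET2 counts under shControl (0.09, edgeR adjusted p = 0.0735). Under shMBD6, TET2 was called lower in TET2 KO than in TET2 WT, by 0.36. Within TET2 KO cells it was called lower in the libraries labelled shMBD6, by 0.44. A count over the whole gene does not test an edit that leaves transcription in place, and the edited part is not given in the sources used here. NSUN2 fell by 0.43 with shMBD6 in TET2 WT cells and rose by 0.19 in TET2 KO cells (edgeR adjusted p = 4.95e-11 and 0.000179).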

How the data were processed

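Per the labels and the study's methods, chromatin-associated RNA was depleted of ribosomal RNA and made into stranded libraries. The authors trimmed reads with Trimmomatic 0.39, aligned them with HISAT2 2.2.1 to hg38 or mm10 and counted them per gene with HTSeq 0.12.4 on GENCODE annotations. The feature type and strand setting of the counting are not given in the sources used here. The deposited values were raw counts per gene, 1 table per library, unscaled and unpooled. Of genes that lie inside another gene, 95.2% (human) and 99.8% (mouse) had 0 counts where that gene was on the same strand, compared with 21.9% and 7.04% on the opposite strand, so counting was taken to use strand and the full span of each gene. Records without a gene stayed out of the library sizes (reads outside genes, 13.1% to 29.9% of records; ambiguous, 2.13% to 5.24%).

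Groups came from the labels, and the single Pspc1 WT mESC library was not used. The test was the edgeR 4.0.16 quasi-likelihood test (R 4.3.3) with TMM scaling on all 12 K562 or 6 mESC libraries, after filterByExpr at a minimum of 10 counts, two-sided. Adjustment was by Benjamini-Hochberg over the 26023 human or 27603 mouse genes tested, and genes were called at 0.05. Intervals are the estimate ± normal limits at 95%. CPM values came from the deposited counts and TMM factors. The fit was tested on simulated counts first. Symbols and positions came from GENCODE v44 and vM21 (99.1% and 99.9% of identifiers matched), promoters from RefSeq. Alternatives were DESeq2 (1.42.0) and its size factors, total gene counts, no filter, a minimum of 50 counts, protein-coding genes of at least 5 CPM scaled among themselves, the compared groups alone, a replicate block and each library left out. One length scale, the span free of genes on the same strand, was added after seeing the data. The members, gene lists and tests were chosen with earlier results of these data known. The text names MBD1 to MBD6, TET2, NSUN2, overlapping genes, up to 2 called genes per list in each direction, and genes among the 5 most like MBD5 and MBD6; a few genes that this rule would name are not reported here. CHD4 was named after its values were seen. The study scaled caRNA by spike-in RNA, which was not used here, so changes are relative to the other genes and a shift of all caRNA would not show. A comparison of the members' protein sequences was not run. Replicate pairs differed by more than sampling noise (chi-square per degree of freedom 3.87 to 14.1).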

Additional observations from a re-analysis of the deposited data

Results flagged for a closer look

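The difference made by the MBD6 hairpin was not the same in the TET2 genotypes for 4 members, by the interaction term of the K562 fit (edgeR quasi-likelihood test, adjusted over all genes). Given as the log2 change in TET2 KO minus that in TET2 WT, it was 0.55 for MBD1, -0.32 for MBD2, -1.51 for MBD5 and 0.75 for MBD6. For MBD1 and MBD5 the changes in the genotypes had opposite signs and both were called. MBD6 was called lower in TET2 WT and was not called in TET2 KO, and MBD2 was called in TET2 KO and not in TET2 WT. All 4 contrasts use the same 12 libraries. The interaction term was called higher for 23.9% and lower for 25.5% of the 26023 genes tested. Of protein-coding genes, 59.9% were called in either direction, so that such calls were common and not particular to the family.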

How the results depend on the processing

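Of 396 values of a member's change without 1 library each, 368 kept direction and side of the threshold, as did 206 of 271 under the other alternatives. MBD1 and MBD5 in both hairpin comparisons and MBD6 in TET2 WT cells kept both in all that were run. With shMBD6 in TET2 WT cells, MBD2 was called at 0.14 (DESeq2 size factors, and DESeq2), 0.13 (total gene counts, and no filter) and 0.22 (abundant protein-coding genes), and MBD3 was not called at -0.41 (DESeq2 size factors, no filter, and DESeq2) and -0.42 (total gene counts), with -0.76 to -0.32 without 1 library. MBD4 turned to 0.049 (DESeq2 size factors, and DESeq2), 0.037 (total gene counts), 0.045 (no filter) and 0.13 (abundant protein-coding genes).

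In TET2 KO cells MBD6 was called at 0.20 (DESeq2 size factors, and DESeq2), 0.31 (total gene counts), 0.23 (no filter, and only the groups compared), 0.19 (minimum of 50 counts) and 0.19 (replicate block), with 0.0998 to 0.26 without 1 library. MBD3 turned to 0.088 (total gene counts), 0.011 (no filter) and 0.010 (only the groups compared), with -0.15 to 0.042 without 1 library.

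Between the genotypes under shControl, total gene counts turned MBD2 to -0.021 and MBD4 to -0.16, and MBD4 was -0.0050 (DESeq2 size factors), -0.0053 (DESeq2) and -0.0066 (minimum of 50 counts), with -0.036 to 0.071 without 1 library. Under shMBD6, MBD3 turned to -0.10 (DESeq2 size factors, and DESeq2), -0.13 (total gene counts), -0.042 (no filter), -0.061 (minimum of 50 counts) and -0.052 (only the groups compared), with -0.18 to 0.25 without 1 library, and MBD4 ran from -0.11 to 0.052. The genotype difference in the hairpin change of MBD4 ran from -0.12 to 0.036 without 1 library.

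In mESC, Mbd1, Mbd2 and Mbd6 turned to 0.13, 0.15 and 0.024 with total gene counts, under which 1 member was called in place of 3, whereas 4 were called with DESeq2 size factors, no filter and DESeq2. Mbd1 and Mbd6 were 0.11 and 0.0091, and Mbd2 0.14, among abundant protein-coding genes, and Mbd1 and Mbd2 were 0.0026 and 0.030 with a minimum of 50 counts. Mbd2 ran from -0.074 to 0.0099 without 1 library. The cause of these shifts was not tested.

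Abundant protein-coding genes tested numbered 9555 in K562 and 10772 in mESC, against 26023 and 27603 genes in the main fit. Among them, 6187 (11047 over all genes) and 6232 (9465) were called for the hairpin in TET2 WT and TET2 KO cells. Between genotypes under shControl and shMBD6, 6967 (11921) and 6578 (15259) were called, with 7135 (12852) for the genotype difference and 5731 (13844) in mESC. Fewer genes were thus called, but a larger share of those tested. The deviations of same-numbered libraries correlated at -0.0174 to 0.0201 over 18 K562 pairs and -0.00204 to 0.0254 over 3 mESC pairs. No pairing by replicate number was seen in them. All tested genes weigh equally in these correlations, those with few counts included, so a weak pairing could be missed. The replicate block changed the call of 1 member, MBD6 in TET2 KO cells (0.19, edgeR adjusted p = 0.0465). MBD3 had the fewest counts of the members in each K562 library.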
